A study of Homo sapiens with 18 samples.

Results

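Genes of prostaglandin synthesis, sensing and breakdown were followed in BJ cells, a human skin fibroblast line, after knockdown or overexpression of PURPL, a long noncoding RNA. The 9 genes, of 61544 listed in each count table, were PTGS1, PTGS2, PLA2G4A, PTGES, PTGIS, PTGFR, PTGER2, PTGER4 and HPGD, found by gene symbol. They were brought together because PTGS2 was lower with knockdown and with overexpression, so the change of PTGS2 against the controls is described below and not tested. Knockdown used CRISPR interference, in which a guide RNA directs a repressor to a promoter, with the guides sgRNA-PURPL#1 and sgRNA-PURPL#2, each set against the control guide sgCtrl. Overexpression gave the groups PURPL#1-OE and PURPL#2-OE, each set against their own control Ctrl. All 6 groups were BJ cells with 3 libraries each, 18 in all. Whether replicates were separate cultures, whether lines were clones, and which constructs carried PURPL are not given in the labels, so p-values measure the spread between these libraries, which may be technical.

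Prostaglandins are made from arachidonic acid. Cytosolic phospholipase A2 (PLA2G4A) frees this fatty acid from membrane lipids, the cyclooxygenases PTGS1 (COX-1) and PTGS2 (COX-2) turn it into prostaglandin H2, and terminal synthases such as PTGES and PTGIS turn that into prostaglandin E2 and prostacyclin. PTGS1 is the steadily expressed form, while PTGS2 is induced by cytokines, growth factors and stress, and its mRNA is short-lived through AU-rich elements in its 3′ UTR. Fibroblasts are a known source of prostaglandin E2, which acts on neighbouring cells through receptors such as PTGER2 and PTGER4 and is broken down by the dehydrogenase HPGD.

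The promoters of both cyclooxygenases and of the phospholipase are shown because the results below turn on these 3 genes: PTGS2 was low in every altered group, PTGS1 was not, and PLA2G4A moved in opposite directions in the experiments. Each sequence is the RefSeq promoter window (GRCh38.p14), 250 bases before and 50 bases after the annotated start, read 5′ to 3′ on the gene's strand. Capitals mark matches, on either strand, to 4 motifs: GGGACTA (the first 7 letters of the NF-kB site of PTGS2), TTNCGCAA (C/EBP type), CGTCA (the core of a cAMP response element) and TATAAA (letters of the TATA box).
PTGS2 promoter (chr1:186680374-186680673, minus strand): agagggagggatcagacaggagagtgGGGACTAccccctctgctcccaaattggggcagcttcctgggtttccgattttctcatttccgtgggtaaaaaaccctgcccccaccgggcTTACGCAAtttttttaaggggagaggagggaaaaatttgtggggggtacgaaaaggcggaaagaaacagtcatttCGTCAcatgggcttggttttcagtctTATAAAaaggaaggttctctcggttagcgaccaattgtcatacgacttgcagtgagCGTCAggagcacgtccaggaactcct
PTGS1 promoter (chr9:122370283-122370582, plus strand): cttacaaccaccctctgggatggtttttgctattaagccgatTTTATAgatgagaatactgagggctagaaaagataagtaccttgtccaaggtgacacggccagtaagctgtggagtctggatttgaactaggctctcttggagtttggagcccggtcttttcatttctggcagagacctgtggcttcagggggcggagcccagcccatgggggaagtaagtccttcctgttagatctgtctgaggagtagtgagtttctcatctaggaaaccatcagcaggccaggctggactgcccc
PLA2G4A promoter (chr1:186828699-186828998, plus strand): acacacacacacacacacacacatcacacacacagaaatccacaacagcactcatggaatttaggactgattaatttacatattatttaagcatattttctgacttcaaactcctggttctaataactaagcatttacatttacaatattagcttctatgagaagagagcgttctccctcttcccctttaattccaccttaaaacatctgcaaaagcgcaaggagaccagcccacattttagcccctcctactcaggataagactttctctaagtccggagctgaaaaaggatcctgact

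The PTGS2 window held all 4 motifs, with no overlap between them. The NF-kB letters began at position -224 from the start, the C/EBP letters at -133, the TATA letters at -32, and CGTCA at -58 and again at 24. The NF-kB and C/EBP letters are those known from the PTGS2 promoter itself, so finding them there follows from the choice of letters. Of 35116 RefSeq promoter windows of the same length, 2.48% held the NF-kB letters, 0.891% the C/EBP letters, 24.6% CGTCA and 11.5% the TATA letters. The PTGS1 window shown had a TATA match on the reverse strand at position -208 and no other match, a further RefSeq window of PTGS1 (chr9:122375052-122375351) had none of the 4, and the PLA2G4A window had none of the 4. RefSeq windows were found for 8 of the 9 genes. These matches describe letters in a window and are not evidence of binding.

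AU-rich elements in the 3′ UTR are known to shorten the life of an mRNA, and the genes carried them at different densities. The 3′ UTR of PTGS2 (GENCODE 29 annotation on GRCh38) began with an AU-rich stretch, shown here as its first 30 bases with 3 overlapping ATTTA pentamers in capitals.
PTGS2 3′ UTR, first 30 bases: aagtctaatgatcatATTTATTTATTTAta

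In all, the PTGS2 3′ UTR held 22 ATTTA pentamers in 2562 bases, or 8.59 per kb, a density that 2.05% of 17301 genes reached or passed. PLA2G4A followed with 4 in 473 bases (8.46 per kb, reached by 2.14% of genes) and PTGER4 with 9 in 1357 bases (6.63 per kb, 4.81%). PTGS1 had 0.95 per kb, PTGES 0.781 and PTGIS 0.494, densities that 60% to 65.9% of genes reached. The short PLA2G4A UTR rests its density on 4 pentamers.

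Libraries held 11444513 to 12896040 counts in the knockdown experiment and 18858976 to 27985649 with overexpression. PURPL checked the labels: it averaged 15.7 ± 1.94 CPM with sgRNA-PURPL#1 and 19.5 ± 1.83 CPM with sgRNA-PURPL#2, against 80.8 ± 12 CPM in sgCtrl, and 173.4 ± 6.39 CPM in PURPL#1-OE and 122.7 ± 7.53 CPM in PURPL#2-OE, against 64.4 ± 4.50 CPM in Ctrl (SD, n = 3 each). CPM are counts relative to the TMM-scaled total of a library, and the tables were scaled separately, so levels are compared only within a table. All 10 fibroblast markers were above 1 CPM in every group. Their summed level was 28500 to 29700 CPM in PURPL#1-OE and 30800 to 32100 CPM in PURPL#2-OE, against 23500 to 24000 CPM in Ctrl. Of the 4 smooth muscle markers, CNN1 and SMTN were measured while MYH11 and DES stayed under 1 CPM on average. Summed, the 4 reached 55.3 to 63.3 CPM with sgRNA-PURPL#1 and 78.6 to 84.4 CPM with sgRNA-PURPL#2, against 106 to 120 CPM in sgCtrl, and 90.4 to 114 CPM in PURPL#1-OE and 82.2 to 85.8 CPM in PURPL#2-OE, against 60.7 to 77.8 CPM in Ctrl. Mitochondrial genes took 4.97% to 6.24% of counts in PURPL#1-OE and 5.37% to 5.9% in PURPL#2-OE, against 4.26% to 4.8% in Ctrl. The knockdown libraries lay between 4.46% and 5.45%. The part of this share and of either marker list in the values below was not tested, and in bulk RNA fewer cells of a kind and less RNA per cell cannot be told apart.

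PTGS2, the inducible cyclooxygenase, was lower in all 12 libraries with altered PURPL than in any control library of the same table, whichever way PURPL had been moved. The gene lies at chr1:186671791-186680922 on the minus strand, in the hg38 coordinates that the tables use. It measured 23.9, 27.3 and 28.2 CPM with sgRNA-PURPL#1 and 26.8, 34.1 and 32.3 CPM with sgRNA-PURPL#2, against 73.3, 75.9 and 85.7 CPM in sgCtrl. In the overexpression table it measured 114.7, 105.5 and 109.8 CPM in PURPL#1-OE and 103.9, 96.1 and 108.6 CPM in PURPL#2-OE, against 259.4, 267.2 and 251.4 CPM in Ctrl. The altered groups overlapped each other within each table and lay apart from their control. The group means were 0.338 and 0.396 of the sgCtrl mean for guides 1 and 2, and 0.424 and 0.397 of the Ctrl mean for PURPL#1-OE and PURPL#2-OE. On the log2 scale these are -1.57 ± 0.0870, -1.34 ± 0.0854, -1.24 ± 0.0541 and -1.33 ± 0.0546 (SE), given as a description.

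The choice of genes did not use the difference between the altered groups of a table, although it is not independent of that difference. PTGS2 was chosen for being low in both groups, so a difference that does not pass cannot show that they are alike. PTGS2 differed between sgRNA-PURPL#2 and sgRNA-PURPL#1 by 0.23 ± 0.0942 on the log2 scale (adjusted p = 0.135) and between PURPL#2-OE and PURPL#1-OE by -0.10 ± 0.0550 (adjusted p = 0.288). Neither difference passed, although PURPL itself stood lower in PURPL#2-OE than in PURPL#1-OE (log2 difference -0.50 ± 0.0571, adjusted p = 1.81e-07). The guide difference depends on 1 library: without sgRNA-PURPL#2 replicate 1, the lowest of its group, it was 0.33 (adjusted p = 0.0328). These adjusted p-values and all that follow come from edgeR's quasi-likelihood test with Benjamini-Hochberg adjustment over all genes tested, and "rose" or "fell" is used of genes with an adjusted p under 0.05.

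PTGS1, the constitutive cyclooxygenase (chr9:122370530-122395703, plus strand), did not fall past the threshold in any comparison. It measured 107.9, 104.2 and 112.2 CPM with sgRNA-PURPL#1 and 107.1, 100.4 and 96.5 CPM with sgRNA-PURPL#2, against 110.4, 116.9 and 108.0 CPM in sgCtrl. The first guide's libraries overlapped the controls, and those of the second lay just below them. The log2 fold changes were -0.05 ± 0.0624 (adjusted p = 0.626) and -0.14 ± 0.0626 (adjusted p = 0.0997), neither past the threshold. With overexpression PTGS1 measured 120.7, 114.6 and 113.2 CPM in PURPL#1-OE and 146.0, 144.8 and 149.5 CPM in PURPL#2-OE, against 116.5, 106.1 and 109.8 CPM in Ctrl. PURPL#1-OE overlapped Ctrl (0.07 ± 0.0523, adjusted p = 0.32), while all PURPL#2-OE libraries stood above both other groups. PTGS1 rose in PURPL#2-OE by 0.41 ± 0.0522 (adjusted p = 2.04e-07), and PURPL#2-OE exceeded PURPL#1-OE by 0.34 ± 0.0520 (adjusted p = 2.38e-05).

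Read as a ratio within each library, 0.221 to 0.262 PTGS2 counts were found per PTGS1 count with sgRNA-PURPL#1 and 0.25 to 0.339 with sgRNA-PURPL#2, against 0.649 to 0.793 in sgCtrl. The ratio was 0.921 to 0.97 in PURPL#1-OE and 0.664 to 0.727 in PURPL#2-OE, against 2.23 to 2.52 in Ctrl. PURPL#2-OE lay below PURPL#1-OE in this ratio, although the 2 groups overlapped in PTGS2 itself. The ratio compares libraries and says nothing of which cyclooxygenase was more abundant, since counts were not divided by transcript length.

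**Figure D1:**
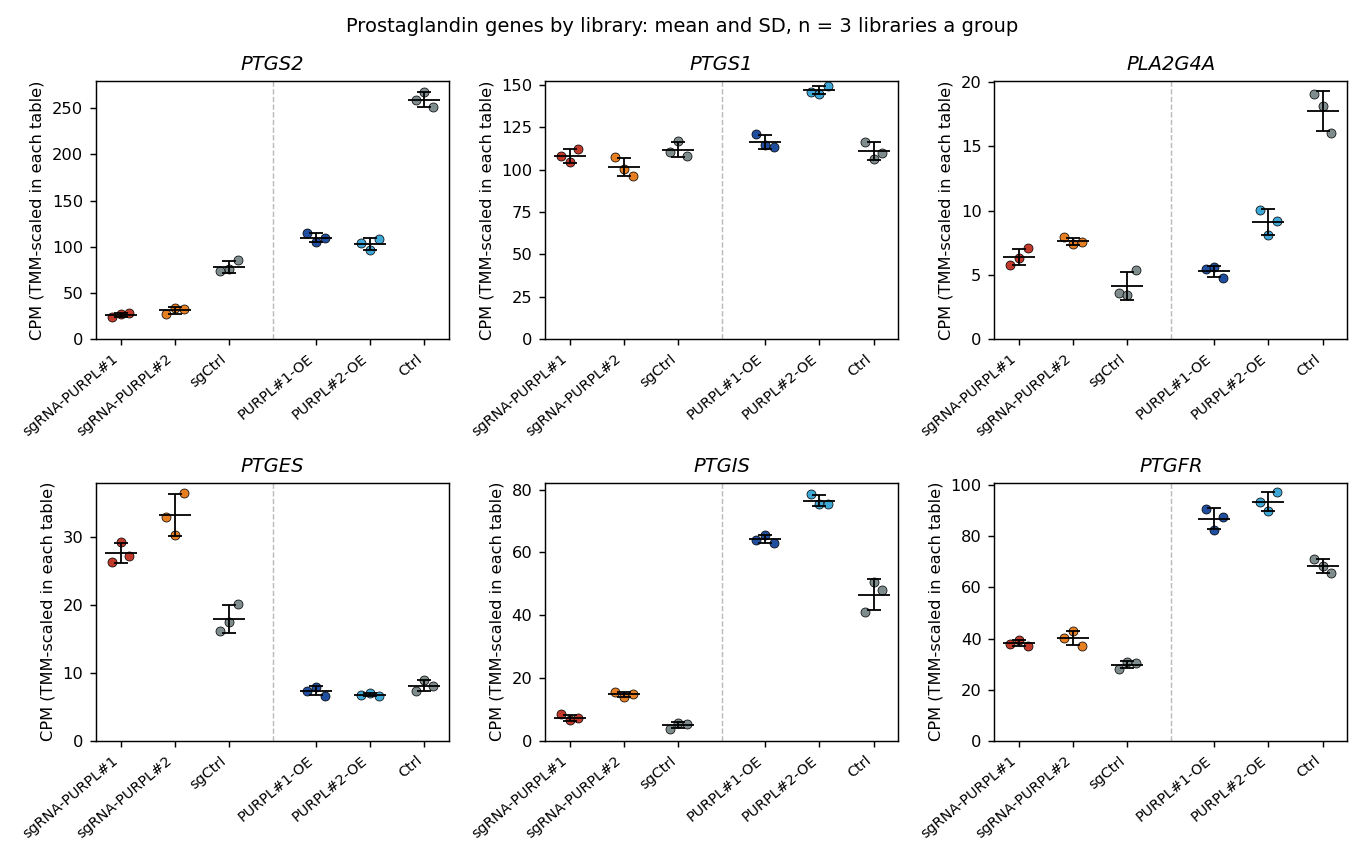
Level of the 6 measured prostaglandin genes in every library, in CPM (vertical axis, from 0), by group; points are libraries, the wide tick is the mean and the bars are the SD of 3 libraries. PTGS2 lies below its control in all 4 altered groups. PTGS1 lies between 96.5 and 116.9 CPM in the knockdown experiment. With overexpression it lies between 106.1 and 149.5 CPM, highest in PURPL#2-OE.

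An antisense transcript starts at the head of PTGS2. PACERR (PTGS2 antisense NF-kB complex-mediated expression regulator, a long noncoding RNA) overlaps PTGS2 by 301 bp on the opposite strand and is known as an activator of PTGS2 transcription. It had 32 counts over the 3 PURPL#1-OE libraries and 41 over PURPL#2-OE, against 56 over Ctrl. The differences did not pass (log2 -0.91 ± 0.390, adjusted p = 0.0648, and -0.34 ± 0.376, adjusted p = 0.514). In the knockdown table it had 11 and 8 counts with guides 1 and 2, against 4 in sgCtrl, too few for the test.

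PLA2G4A, which supplies the arachidonic acid, moved in opposite directions in the 2 experiments. Its span (chr1:186828949-186988981, plus strand) lies 148026 bp from that of PTGS2. The knockdown libraries had 5.76, 6.34 and 7.06 CPM with sgRNA-PURPL#1 and 7.93, 7.39 and 7.52 CPM with sgRNA-PURPL#2, against 3.56, 3.42 and 5.40 CPM in sgCtrl. All altered libraries lay above all controls, 1 control library standing higher than the other 2. PLA2G4A rose by 0.62 ± 0.178 with guide 1 (adjusted p = 0.01) and by 0.88 ± 0.173 with guide 2 (adjusted p = 0.000282), and the guides did not differ past the threshold (0.26 ± 0.161, adjusted p = 0.402). The call for guide 1 was lost without sgCtrl replicate 2 (0.49, adjusted p = 0.0809) or without sgRNA-PURPL#1 replicate 3 (0.54, adjusted p = 0.0593).

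Overexpression gave 5.47, 5.58 and 4.79 CPM of PLA2G4A in PURPL#1-OE and 10.1, 8.10 and 9.18 CPM in PURPL#2-OE, against 19.02, 18.1 and 16.01 CPM in Ctrl. The 3 groups did not overlap, and the order was Ctrl, PURPL#2-OE and PURPL#1-OE from high to low. PLA2G4A fell by 1.75 ± 0.113 in PURPL#1-OE (adjusted p = 9.07e-14) and by 0.96 ± 0.108 in PURPL#2-OE (adjusted p = 1.44e-08). The lines differed by 0.79 ± 0.121 (adjusted p = 2.25e-05), with PURPL#2-OE higher. The mean overexpression effect was below the mean knockdown effect by a log2 difference of -2.11 ± 0.174 (adjusted p = 1.39e-13). PTGS2 in the same contrast differed by 0.16 ± 0.0864, a description, since PTGS2 was chosen for falling in both.

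**Figure D2:**
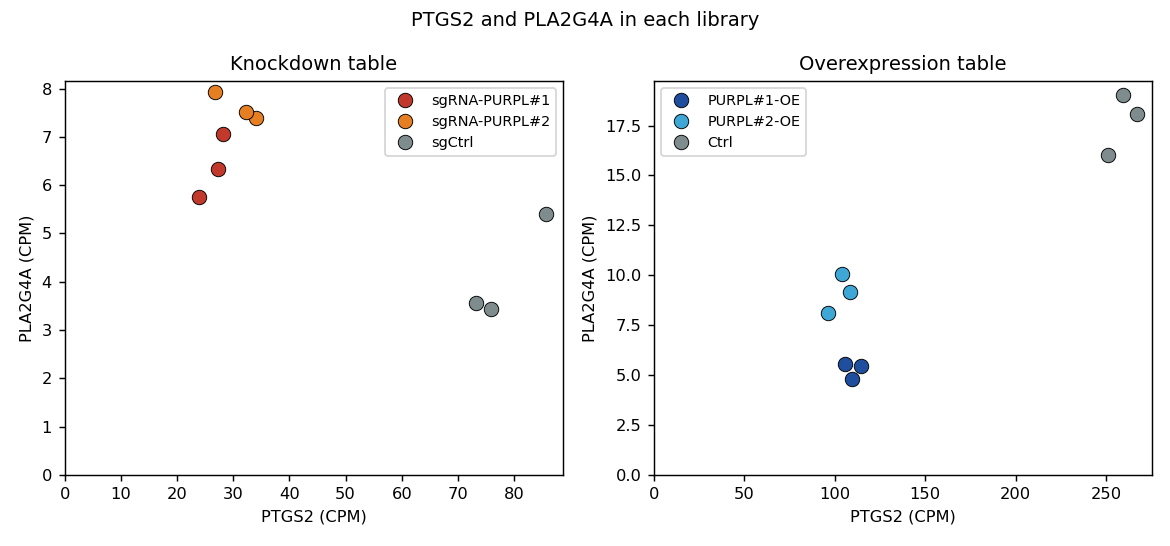
PTGS2 (horizontal axis) against PLA2G4A (vertical axis), both in CPM from 0, for the 9 knockdown libraries (left) and the 9 overexpression libraries (right); each point is a library, coloured by group. With the guides PTGS2 is low where PLA2G4A is high, while in the overexpression table both stand highest in the 3 Ctrl libraries.

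PTGES and PTGIS, the terminal synthases among the 9 genes, both rose with both guides, and PTGIS rose in both overexpression lines. PTGES (chr9:129738331-129753042, minus strand) makes prostaglandin E2 and is usually induced together with PTGS2. It measured 26.4, 29.3 and 27.3 CPM with sgRNA-PURPL#1 and 33.0, 30.4 and 36.6 CPM with sgRNA-PURPL#2, against 16.1, 17.6 and 20.2 CPM in sgCtrl. The 3 groups did not overlap. PTGES rose by 0.62 ± 0.0973 (adjusted p = 1.2e-05) with guide 1 and by 0.89 ± 0.0954 (adjusted p = 2.06e-08) with guide 2, in the same libraries in which PTGS2 was lower. The difference between the guides, 0.27 ± 0.0905, did not pass (adjusted p = 0.0593), but it passed in a fit of those 2 groups alone (0.27, adjusted p = 0.0171) and without sgRNA-PURPL#2 replicate 2 (0.33, adjusted p = 0.0366).

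In the overexpression table PTGES measured 7.40, 8.003 and 6.69 CPM in PURPL#1-OE and 6.77, 7.03 and 6.597 CPM in PURPL#2-OE, against 7.29, 8.91 and 8.11 CPM in Ctrl. PURPL#1-OE overlapped Ctrl and PURPL#2-OE lay just below it. Neither change passed the threshold (-0.14 ± 0.119, adjusted p = 0.378, and -0.25 ± 0.122, adjusted p = 0.103). The difference between the experiments did: the overexpression effect lay below the knockdown effect by -0.96 ± 0.132 (adjusted p = 1.26e-07).

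PTGIS, prostacyclin synthase (chr20:49503874-49568137, minus strand), rose in all 4 comparisons. It measured 8.48, 6.58 and 7.15 CPM with sgRNA-PURPL#1 and 15.5, 13.9 and 14.95 CPM with sgRNA-PURPL#2, against 3.82, 5.603 and 5.32 CPM in sgCtrl. The 3 groups did not overlap, and sgRNA-PURPL#2 stood far above sgRNA-PURPL#1. The log2 changes were 0.58 ± 0.161 (adjusted p = 0.00732) and 1.58 ± 0.145 (adjusted p = 9.09e-10), and guide 2 exceeded guide 1 by 0.995 ± 0.136 (adjusted p = 4.46e-06). PURPL did not differ between the guides past the threshold (0.30 ± 0.119, adjusted p = 0.128). Its libraries did not overlap, though, with 17.93 to 21.49 CPM for sgRNA-PURPL#2 and 14.12 to 17.89 CPM for sgRNA-PURPL#1. The PTGIS call for guide 1 rests on a few libraries, being lost without sgCtrl replicate 1 (0.43, adjusted p = 0.0513) and without sgRNA-PURPL#1 replicate 1 (0.47, adjusted p = 0.0723).

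With overexpression PTGIS measured 64.0, 65.6 and 63.0 CPM in PURPL#1-OE and 78.5, 75.5 and 75.4 CPM in PURPL#2-OE, against 41.0, 50.6 and 48.1 CPM in Ctrl. Again the groups did not overlap. The rise was 0.46 ± 0.0648 (adjusted p = 8.29e-07) in PURPL#1-OE and 0.71 ± 0.0648 (adjusted p = 2.14e-10) in PURPL#2-OE, and the lines differed by 0.25 ± 0.0632 (adjusted p = 0.00677). The overexpression effect was the smaller on average, by -0.50 ± 0.141 (adjusted p = 0.00482), and this difference was lost without sgCtrl replicate 1 (-0.35, adjusted p = 0.068).

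PTGFR, the receptor of prostaglandin F2 alpha, rose in all 4 comparisons, by 0.35 to 0.45 on the log2 scale. It measured 37.9, 39.5 and 37.1 CPM with sgRNA-PURPL#1 and 40.4, 43.1 and 37.3 CPM with sgRNA-PURPL#2, against 28.2, 30.8 and 30.5 CPM in sgCtrl. Overexpression gave 90.6, 82.6 and 87.5 CPM in PURPL#1-OE and 93.3, 89.8 and 97.4 CPM in PURPL#2-OE, against 71.1, 68.3 and 65.5 CPM in Ctrl. In each table the altered groups overlapped each other and lay wholly above the control. PTGFR rose by 0.36 ± 0.0792 (adjusted p = 0.00102) and 0.43 ± 0.0789 (adjusted p = 0.000111) with guides 1 and 2, and by 0.35 ± 0.0565 (adjusted p = 9.26e-06) and 0.45 ± 0.0567 (adjusted p = 1.28e-07) in PURPL#1-OE and PURPL#2-OE. The mean effects of the 2 experiments differed by 0.00 ± 0.0852 (adjusted p = 0.989). PTGFR (chr1:78303884-78540701, plus strand) shares 27.7% of its span with MGC27382 on the same strand, where reads on both genes were not counted, so its level is uncertain.

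The E2 receptors PTGER2 and PTGER4, which raise cAMP, and HPGD, which inactivates prostaglandins, were close to the limit of detection. PTGER4 (chr5:40679915-40693735, plus strand) had 14 counts over 3 libraries with sgRNA-PURPL#1 and 25 with sgRNA-PURPL#2, against 24 in sgCtrl, and was left out of the knockdown test by the filter on low counts. In the overexpression table it had 25 counts in PURPL#1-OE and 14 in PURPL#2-OE, against 38 in Ctrl, and did not pass (-0.71 ± 0.560, adjusted p = 0.34, and -1.29 ± 0.625, adjusted p = 0.106). Leaving out 1 unnumbered PURPL#2-OE library brought the second past the threshold (-2.02, adjusted p = 0.0462). PTGER2 (chr14:52314305-52328598, plus strand) had 0 counts with sgRNA-PURPL#1 and 4 with sgRNA-PURPL#2, against 1 in sgCtrl, and 4 in PURPL#1-OE and 4 in PURPL#2-OE, against 16 in Ctrl. HPGD (chr4:174490175-174523154, minus strand) had 2 and 0 counts with guides 1 and 2, against 4 in sgCtrl, and 9 and 3 in PURPL#1-OE and PURPL#2-OE, against 11 in Ctrl. A count of 0 over a group of 3 libraries allows up to 0.0812 CPM of PTGER2 with sgRNA-PURPL#1 and 0.0815 CPM of HPGD with sgRNA-PURPL#2 (3 counts over the group, counting error only). The filter on low counts left PTGER2 and HPGD out of the test in both tables. PTGER2 was lower in all 6 overexpression libraries, with 1 or 2 counts each, than in any Ctrl library, with 3 to 7 counts, and HPGD libraries overlapped their controls in both tables. In a fit without the filter, PTGER2 did not pass in PURPL#1-OE (-2.02 ± 1.04, adjusted p = 0.202) or in PURPL#2-OE (-1.81 ± 1.05, adjusted p = 0.283).

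Counted over the 8 genes other than PTGS2, 5 were tested with each guide, of which 4 rose and 1 did not pass, and 3 were too low to test. Of all genes tested, 24.5% passed with sgRNA-PURPL#1 (11.6% up) and 24.4% with sgRNA-PURPL#2 (11.9% up). The 4 were the same with both guides, PLA2G4A, PTGES, PTGIS and PTGFR, and the guides share the sgCtrl libraries. In PURPL#1-OE 6 of the 8 were tested, with 2 up and 1 down, where 39.6% of all genes passed (19.5% up, 20.1% down). In PURPL#2-OE 3 were up and 1 down, where 38.5% of all genes passed (18.9% up, 19.6% down). Between the experiments, 7 of the 9 had values, that of PTGS2 being a description only. Among the others 1 was higher and 3 were lower in the overexpression effect, where 33.6% of all genes passed (15.6% higher, 18% lower). The 1 that was higher was PTGS1 (0.33 ± 0.0716, adjusted p = 0.000298). Between guides 2 and 1, 6 were tested, PTGS2 with the limit given above included. Only PTGIS passed, where 9.25% of all genes did (5.51% up, 3.74% down). Between PURPL#2-OE and PURPL#1-OE 3 of 7 passed, PTGS2 again among the 7, where 12.4% of all genes did (6.18% up, 6.19% down). The 3 were PTGS1, PLA2G4A and PTGIS, all higher in PURPL#2-OE.

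**Figure D3:**
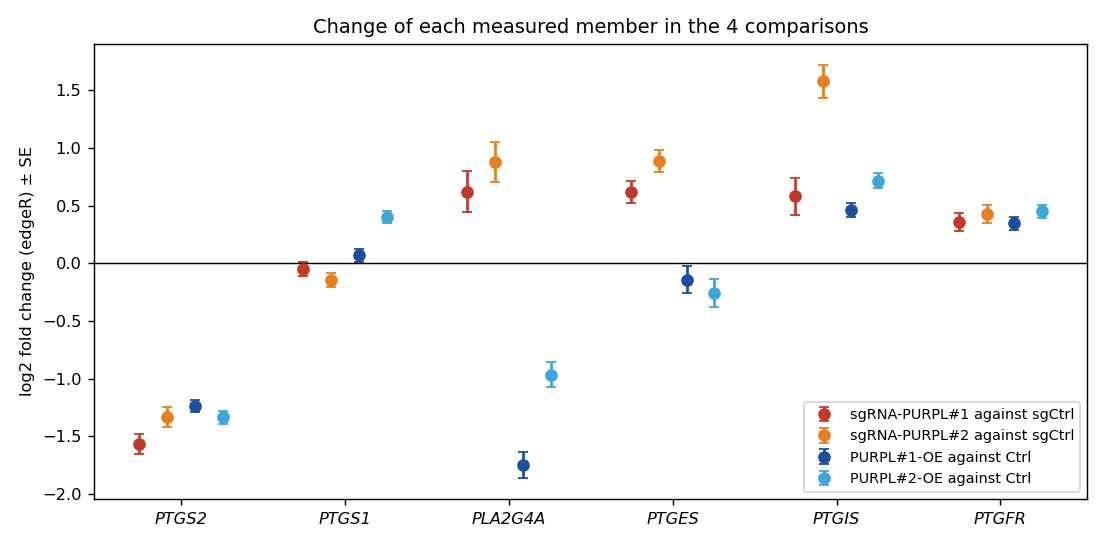
Log2 fold change (vertical axis) of the 6 measured genes against the control, with its SE, for guides 1 and 2 and for PURPL#1-OE and PURPL#2-OE. PTGS2 lies between -1.57 and -1.24 in all 4 comparisons and PTGFR between 0.35 and 0.45, while PLA2G4A runs from 0.88 with guide 2 to -1.75 in PURPL#1-OE.

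The rest of the eicosanoid pathway was read from a list of 52 other genes. Of the 31 tested in the knockdown table, 7 rose and 4 fell with sgRNA-PURPL#1 and 4 rose and 6 fell with sgRNA-PURPL#2. Of the 30 tested in the overexpression table, 7 rose and 9 fell in PURPL#1-OE and 9 rose and 11 fell in PURPL#2-OE. The shares passing, 35.5% and 32.3% with the guides and 53.3% and 66.7% with overexpression, stand beside the shares of all genes given above. The count with sgRNA-PURPL#1, 11 in all, rests in part on 1 library, and was 6 without sgRNA-PURPL#1 replicate 1. Median log2 changes were -0.05, 0.01, -0.11 and 0.05 in these 4 comparisons, where the medians over all genes lay within 0.01 of 0.

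By role, the list split as follows. Of 13 tested genes that release or handle arachidonic acid, 1 rose and 3 fell with guide 1, 2 fell with guide 2, 4 rose and 2 fell in PURPL#1-OE, and 3 rose and 3 fell in PURPL#2-OE. These are 30.8%, 15.4%, 46.2% and 46.2% of the 13, where 24.5%, 24.4%, 39.6% and 38.5% of all genes passed. The secreted phospholipase PLA2G12A averaged 21.8 ± 0.913 CPM in PURPL#1-OE and 19.4 ± 0.518 CPM in PURPL#2-OE, against 12.1 ± 1.38 CPM in Ctrl (SD, n = 3 each), a rise of 0.85 (adjusted p = 7.95e-09) and 0.68 (adjusted p = 6.8e-07). PLA2G4C, a relative of PLA2G4A, averaged 7.51 ± 0.251 CPM in PURPL#1-OE and 6.33 ± 0.340 CPM in PURPL#2-OE, against 11.2 ± 0.934 CPM in Ctrl, and fell (log2 -0.58, adjusted p = 7.16e-05, and -0.83, adjusted p = 6.16e-07). With the guides neither passed.

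Of the other terminal synthases, 6 were tested with the guides, where 2 rose with sgRNA-PURPL#1 and 1 fell with sgRNA-PURPL#2, and 5 with overexpression, where 3 fell in PURPL#1-OE and 1 rose and 3 fell in PURPL#2-OE. The shares passing were 33.3%, 16.7%, 60% and 80%, beside 24.5%, 24.4%, 39.6% and 38.5% of all genes. The 3 that fell in both lines were AKR1B1, CBR1 and PTGES3, by log2 changes of -0.98 and -0.34, -0.35 and -0.26, and -0.22 and -0.16 in PURPL#1-OE and PURPL#2-OE. The 1 that rose in PURPL#2-OE was AKR1C3, which makes prostaglandin F2 alpha and rose there by 1.86 ± 0.145 (adjusted p = 1.42e-11). It did not pass in PURPL#1-OE (0.09 ± 0.162, adjusted p = 0.683), and the lines differed by 1.76 ± 0.142 (adjusted p = 3.3e-10). AKR1C3 also rose with sgRNA-PURPL#1 (1.13 ± 0.267, adjusted p = 0.00185) and did not pass with sgRNA-PURPL#2 (0.75 ± 0.280, adjusted p = 0.0509).

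The prostaglandin transporter SLCO2A1, which takes prostaglandins up from outside the cell, moved in opposite directions in the experiments. It averaged 0.647 ± 0.193 CPM with sgRNA-PURPL#1 and 0.517 ± 0.255 CPM with sgRNA-PURPL#2, against 1.37 ± 0.269 CPM in sgCtrl, and fell (log2 -1.07, adjusted p = 0.0476, and -1.39, adjusted p = 0.0136). Overexpression gave 2.12 ± 0.768 CPM in PURPL#1-OE and 3.50 ± 0.173 CPM in PURPL#2-OE, against 0.900 ± 0.0756 CPM in Ctrl, a rise of 1.22 (adjusted p = 0.000396) and 1.94 (adjusted p = 2.36e-07). Libraries of the altered groups did not overlap their controls. The effects differed between the experiments by 2.81 ± 0.414 (adjusted p = 4.54e-07), the reverse in sign of the difference for PLA2G4A.

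Of 7 other receptors and receptor-associated genes, 3 were tested, PTGER3, PTGIR and PTGFRN, the last a negative regulator of the prostaglandin F2 alpha receptor. Of the 3, 1 rose with sgRNA-PURPL#1, 1 rose and 2 fell with sgRNA-PURPL#2, 1 fell in PURPL#1-OE and 3 fell in PURPL#2-OE, where 24.5%, 24.4%, 39.6% and 38.5% of all genes passed. PTGIR, the prostacyclin receptor, fell with sgRNA-PURPL#2 (-0.56) and in PURPL#1-OE and PURPL#2-OE (-0.50 and -0.35), and did not pass with sgRNA-PURPL#1 (-0.20). PTGER3, the E2 receptor that lowers cAMP, rose with both guides, by 2.54 ± 0.567 (adjusted p = 0.00109) and 2.17 ± 0.597 (adjusted p = 0.00766). Its levels were low, 1.22 to 1.40 CPM with sgRNA-PURPL#1 and 0.252 to 1.74 CPM with sgRNA-PURPL#2, against 0.156 to 0.313 CPM in sgCtrl, so 1 library of guide 2 overlapped the controls. In PURPL#1-OE it ranged over 0.719 to 1.40 CPM and in PURPL#2-OE over 0.107 to 0.410 CPM, against 0.671 to 1.25 CPM in Ctrl. It fell in PURPL#2-OE (-1.77 ± 0.451, adjusted p = 0.00221) and did not pass in PURPL#1-OE (0.12 ± 0.354, adjusted p = 0.826), and these lines differed by -1.89 ± 0.442 (adjusted p = 0.00369).

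Among the enzymes of transport and breakdown, 3 of 8 tested rose and 1 fell with each guide, 2 rose and 3 fell in PURPL#1-OE, and 4 rose and 2 fell in PURPL#2-OE. These are 50%, 50%, 62.5% and 75% of the 8, beside 24.5%, 24.4%, 39.6% and 38.5% of all genes. AKR1C1, an aldo-keto reductase that also reduces prostaglandins, averaged 19.5 ± 2.82 CPM with sgRNA-PURPL#1 and 16.3 ± 1.16 CPM with sgRNA-PURPL#2, against 9.02 ± 0.757 CPM in sgCtrl, and rose by 1.12 (adjusted p = 1.76e-08) and 0.85 (adjusted p = 3.87e-06). Its relative AKR1C2 rose by 0.91 (adjusted p = 0.0114) and 0.77 (adjusted p = 0.0375). AKR1C2 was low, with 3.328 to 4.435 CPM for sgRNA-PURPL#1 and 2.313 to 4.071 CPM for sgRNA-PURPL#2, against 1.253 to 2.949 CPM in sgCtrl. The sgRNA-PURPL#2 libraries thus overlapped the controls. With overexpression AKR1C1 averaged 19.7 ± 0.196 CPM in PURPL#1-OE and 49.5 ± 3.38 CPM in PURPL#2-OE, against 33.3 ± 4.74 CPM in Ctrl. It fell in PURPL#1-OE (log2 -0.76, adjusted p = 1.53e-08) and rose in PURPL#2-OE (0.57, adjusted p = 1.26e-06), and the lines differed by 1.33 ± 0.0833 (adjusted p = 2.21e-12). AKR1C2 rose in PURPL#2-OE (1.05, adjusted p = 6.72e-06) and did not pass in PURPL#1-OE (0.03, adjusted p = 0.925). The AKR1C genes, AKR1C3 included, are close copies, so the split of reads between them is uncertain. The carbonyl reductase CBR3 averaged 5.49 ± 0.420 CPM in PURPL#1-OE and 6.34 ± 0.835 CPM in PURPL#2-OE, against 11.0 ± 1.83 CPM in Ctrl, and fell (log2 -0.997, adjusted p = 3.14e-07, and -0.79, adjusted p = 1.58e-05). Of 10 leukotriene and lipoxygenase genes only LTA4H, which makes leukotriene B4, was tested. It rose in both overexpression lines (0.47 ± 0.0535, adjusted p = 2.2e-08, and 0.60 ± 0.0537, adjusted p = 1.84e-10) and did not pass with the guides (0.03 and 0.01).

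**Figure D4:**
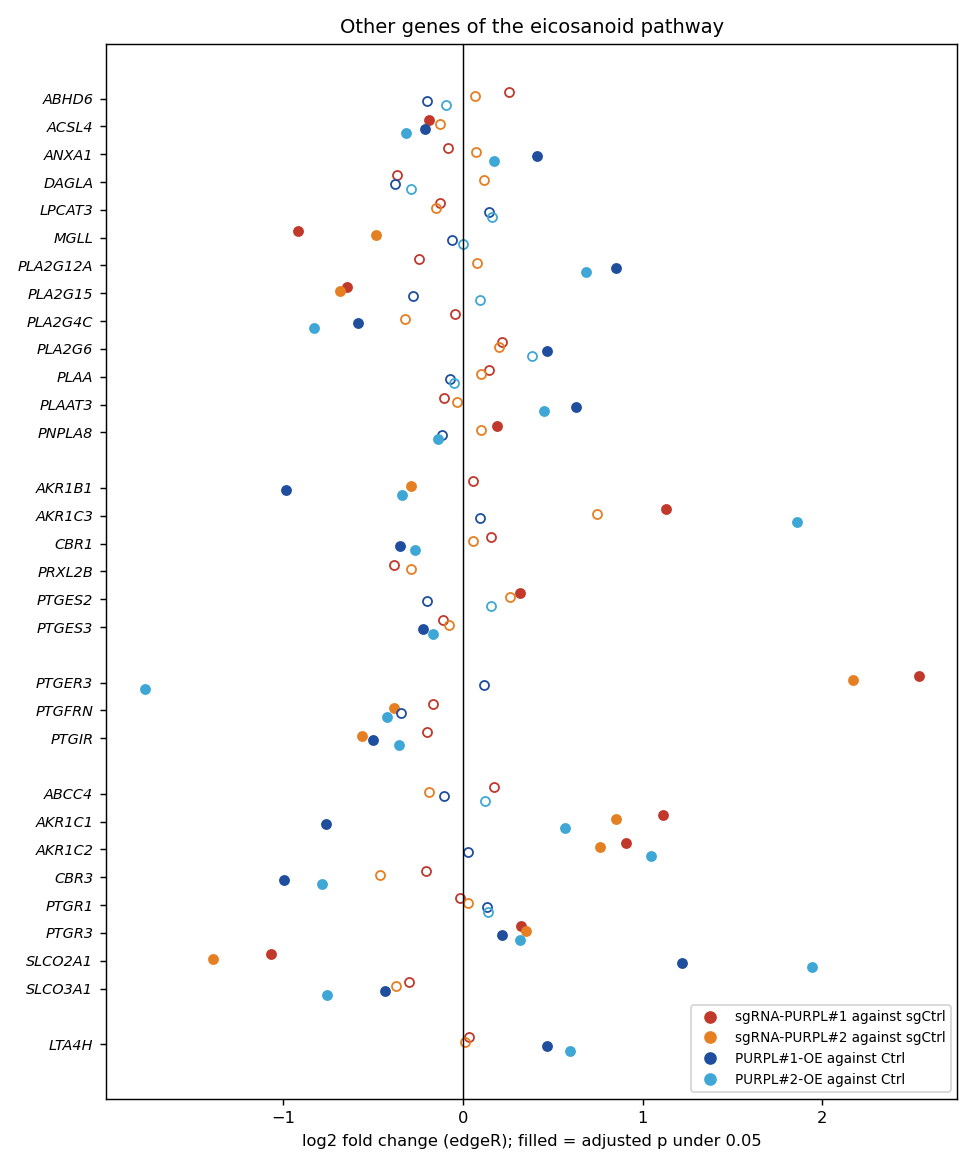
Log2 fold change (horizontal axis) of the other eicosanoid genes that were tested, grouped by role from top to bottom (arachidonic acid, terminal synthases, receptors, transport and breakdown, leukotrienes); filled points have an adjusted p under 0.05. SLCO2A1 lies at -1.07 and -1.39 with the guides and at 1.22 and 1.94 with overexpression, and PTGER3 at 2.54 and 2.17 with the guides.

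Ligands and receptors known to induce PTGS2 were read from a further list. Of 10 tested ligands and receptors, 8 fell in PURPL#1-OE and 8 fell and 2 rose in PURPL#2-OE, with median log2 changes of -1.36 and -1.12. With the guides 4 fell and 1 rose (sgRNA-PURPL#1) and 3 fell (sgRNA-PURPL#2), with medians of -0.31 and -0.44. Shares passing were 50% and 30% with the guides and 80% and 100% in PURPL#1-OE and PURPL#2-OE, where 24.5%, 24.4%, 39.6% and 38.5% of all genes passed. IL1B, the cytokine interleukin-1 beta, averaged 3.48 ± 0.539 CPM with sgRNA-PURPL#1 and 3.64 ± 0.389 CPM with sgRNA-PURPL#2, against 7.95 ± 1.10 CPM in sgCtrl, and fell (log2 -1.20, adjusted p = 3.82e-06, and -1.13, adjusted p = 9.23e-06). In the overexpression table IL1B averaged 1.75 ± 0.227 CPM in PURPL#1-OE and 2.72 ± 0.520 CPM in PURPL#2-OE, against 14.6 ± 2.15 CPM in Ctrl, and fell (log2 -3.05, adjusted p = 3.66e-16, and -2.44, adjusted p = 3.27e-14). The fall was the deeper with overexpression, by -1.59 ± 0.198 (adjusted p = 1.21e-08).

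AREG, an EGF receptor ligand, fell in all 4 comparisons (log2 -0.93, adjusted p = 1.76e-06, -0.82, adjusted p = 1.12e-05, -2.58, adjusted p = 9.58e-13, and -1.497, adjusted p = 1.55e-08). It averaged 8.18 ± 0.447 CPM with sgRNA-PURPL#1 and 8.81 ± 0.951 CPM with sgRNA-PURPL#2, against 15.6 ± 2.23 CPM in sgCtrl, and 1.29 ± 0.296 CPM in PURPL#1-OE and 2.68 ± 0.557 CPM in PURPL#2-OE, against 7.63 ± 0.379 CPM in Ctrl. IL1A, interleukin-1 alpha, fell in PURPL#1-OE and PURPL#2-OE (-2.65, adjusted p = 3.29e-12, and -2.08, adjusted p = 2.82e-10) and did not pass with the guides (-0.45 and -0.39), where no library exceeded 1.245 CPM. The receptor IL1R1 rose with sgRNA-PURPL#1 (0.47, adjusted p = 2.94e-06) and in PURPL#2-OE (0.55, adjusted p = 1.78e-10), and fell in PURPL#1-OE (-0.28, adjusted p = 3.15e-05).

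Transcription factors reported at the PTGS2 promoter moved in both directions. All 17 were tested: 3 rose and 4 fell with sgRNA-PURPL#1, 4 rose and 3 fell with sgRNA-PURPL#2, 3 rose and 7 fell in PURPL#1-OE, and 3 rose and 5 fell in PURPL#2-OE, with median log2 changes of 0.05, -0.09, -0.17 and -0.10. The shares passing were 41.2%, 41.2%, 58.8% and 47.1%, where 24.5%, 24.4%, 39.6% and 38.5% of all genes passed. FOSL1, an AP-1 subunit, averaged 17.5 ± 1.57 CPM in PURPL#1-OE and 20.4 ± 2.86 CPM in PURPL#2-OE, against 82.8 ± 2.17 CPM in Ctrl, and fell (log2 -2.24, adjusted p = 1.55e-19, and -2.02, adjusted p = 2.1e-18). FOSL1 also fell with guides 1 and 2 (log2 -0.45, adjusted p = 2.07e-06, and -0.39, adjusted p = 2.1e-05). EGR1, an immediate early factor, averaged 3.34 ± 0.537 CPM with sgRNA-PURPL#1 and 2.86 ± 0.278 CPM with sgRNA-PURPL#2, against 5.32 ± 1.05 CPM in sgCtrl, and fell (log2 -0.67, adjusted p = 0.0125, and -0.89, adjusted p = 0.00144). EGR1 fell as well in PURPL#1-OE and PURPL#2-OE (log2 -1.03, adjusted p = 3.98e-12, and -0.45, adjusted p = 1.77e-05). JUN too fell in all 4 comparisons (-0.31, -0.29, -1.15 and -0.86). Other factors did not. ATF3 rose with guides 1 and 2 (0.52 and 1.02) and fell in PURPL#1-OE and PURPL#2-OE (-1.90 and -1.77). FOS rose with sgRNA-PURPL#2 (1.397) and in both lines (0.80 and 1.305), as did CEBPD (0.47, 0.48 and 0.82). With sgRNA-PURPL#1 neither passed (0.81 and 0.29).

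Proteins that bind AU-rich elements, of which the PTGS2 3′ UTR carries many, gave 9 tested genes. With the guides 2 fell (sgRNA-PURPL#1) and 1 rose and 2 fell (sgRNA-PURPL#2), and with overexpression 1 rose and 5 fell (PURPL#1-OE) and 1 rose and 4 fell (PURPL#2-OE). These are 22.2%, 33.3%, 66.7% and 55.6% of the 9, where 24.5%, 24.4%, 39.6% and 38.5% of all genes passed. CELF2, which binds and holds back PTGS2 mRNA, averaged 31.0 ± 1.27 CPM with sgRNA-PURPL#1 and 36.1 ± 2.19 CPM with sgRNA-PURPL#2, against 58.8 ± 7.30 CPM in sgCtrl, and fell (log2 -0.92, adjusted p = 5.68e-10, and -0.70, adjusted p = 1.07e-07). CELF2 averaged 41.0 ± 1.04 CPM in PURPL#1-OE and 40.8 ± 1.76 CPM in PURPL#2-OE, against 54.7 ± 4.07 CPM in Ctrl. Over all 36 tested regulators, 14 and 13 passed with guides 1 and 2 (38.9% and 36.1%) and 24 and 23 in PURPL#1-OE and PURPL#2-OE (66.7% and 63.9%). Of all genes, 24.5%, 24.4%, 39.6% and 38.5% passed in these 4 comparisons. Among the regulators, 4 rose and 10 fell, 5 rose and 8 fell, 4 rose and 20 fell, and 6 rose and 17 fell. The list was chosen with earlier results of these data known.

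Genes induced by cAMP, the messenger downstream of PTGER2, PTGER4 and the prostacyclin receptor, did not move one way. Of 12 tested, 2 rose and 2 fell with sgRNA-PURPL#1, 3 rose and 1 fell with sgRNA-PURPL#2, 2 rose and 3 fell in PURPL#1-OE, and 4 rose and 4 fell in PURPL#2-OE, with median log2 changes of -0.02, 0.04, -0.18 and -0.11. The shares passing were 33.3%, 33.3%, 41.7% and 66.7%, where 24.5%, 24.4%, 39.6% and 38.5% of all genes passed. The nuclear receptor NR4A1 fell with the guides (-1.05, adjusted p = 0.00252, and -0.78, adjusted p = 0.021) and rose with overexpression (0.97, adjusted p = 0.00431, and 0.73, adjusted p = 0.0384). NR4A1 was low throughout, averaging 1.43 and 1.74 CPM with guides 1 and 2, against 2.99 CPM in sgCtrl. In PURPL#1-OE and PURPL#2-OE it averaged 1.895 and 1.59 CPM, against 0.939 CPM in Ctrl. PDE4B, a phosphodiesterase that degrades cAMP, moved the other way to NR4A1. It rose by 0.89 (adjusted p = 2.92e-12) and 0.75 (adjusted p = 1.24e-10) with the guides and fell with overexpression (log2 -0.48, adjusted p = 2.18e-08, and -0.39, adjusted p = 1.16e-06). PDE4D rose with sgRNA-PURPL#2 (0.82), did not pass with sgRNA-PURPL#1 (0.44), and fell in both lines (-0.70 and -0.87). DUSP1 fell with sgRNA-PURPL#1 (-0.33) but rose with sgRNA-PURPL#2 (0.30) and in both lines (0.47 and 0.41).

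Across the 18 libraries, with log2 levels centred within each table, the genes most like PTGS2 by Pearson's r among 12399 genes were SMIM3 (0.978), PLAT (0.977), CENPI (0.971), RACGAP1 (0.968) and SMURF2 (0.964). PLAT encodes tissue plasminogen activator, CENPI a centromere protein and RACGAP1 a regulator of cytokinesis. PLAT was closest to PTGS2 in size as well, with log2 changes of -1.54, -1.24, -1.01 and -1.17 in the 4 comparisons. PTGS2 was chosen for being low in the altered groups, so the genes most like it are those sharing that pattern. Whether they are regulated together was not tested. The most opposed were KCTD15 (-0.966), KIZ (-0.965), HMCN1 (-0.956), SOX4 (-0.954) and KIF23-AS1 (-0.95). These values describe points that share libraries, controls and group structure, and they depend on the measure: by Spearman's rho the 5 most alike included 0 of the same genes, and the 5 named here had rho of 0.827 to 0.847. For PTGS1 the most alike were ALDH9A1, PFKFB3, ZFP36L2, ZCCHC24 and GLUL (0.866 to 0.898). For PTGES they were KLF3, KAZN, ELN, CHD2 and ATOH8 (0.906 to 0.931), and for PTGFR they were HOXA13, MAP2K6, ABCC3, HMCN1 and GCLM (0.946 to 0.962). HMCN1 thus stood among the genes most like PTGFR and among those most opposed to PTGS2.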

How the data were processed

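Poly(A) RNA of BJ cells was sequenced in 18 libraries, in 6 groups of 3. The authors deposited raw read counts per gene in 2 tables of 9 libraries. The submitters' processing notes name HISAT2 2.1.0, featureCounts 2.0.1 and the builds hg38 and GRCh38.p13, the strand setting being not given in the sources used here. In the counts, 0 of 9429 genes inside a gene on the same strand had reads, against 45% of 11533 inside a gene on the opposite strand only, so counting followed the strand and dropped reads on 2 same-strand genes. Listed lengths equal whole gene spans, so levels of different genes were not compared. Replicate numbers were missing from 5 overexpression columns, which were used as members of their group without a number. The number of unused columns was 0.

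Each table was fitted with edgeR 4.0.16 in R 4.3.3 on all 9 libraries (filterByExpr with min.count 10 and min.total.count 15, TMM, robust quasi-likelihood test, 6 residual degrees of freedom), giving 13923 and 15267 tested genes; a fit of all 18 libraries (15166 genes) compared the mean overexpression effect with the mean knockdown effect. The fitting steps were also run on simulated counts. Far fewer genes were changed there than passed here, so that run does not measure how reliable the calls are. Alternatives were DESeq2 1.42.0 and its size factors, upper quartile factors, no low-count filter, fits of fewer groups, a replicate block and leaving out each library. The members and gene lists were chosen with earlier results of these data known. All 9 members were named. From each list, at most 4 genes per experiment were named by mean size of change. These passed the same way with both guides or both overexpression lines. LTA4H, IL1R1, AKR1C3, AKR1B1, CBR1, PTGES3, PTGIR, PTGFRN, ATF3, FOS, CEBPD and JUN were named after their values were seen. Likeness used log2 CPM with a pseudocount of 0.5 and genes averaging at least 1 CPM.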

Additional observations from a re-analysis of the deposited data

Results flagged for a closer look

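Several genes differed between the guides, the overexpression lines or the experiments by a test of the difference itself (edgeR's quasi-likelihood test, Benjamini-Hochberg adjusted over all genes). PTGIS was higher with sgRNA-PURPL#2 than with sgRNA-PURPL#1 by 0.995 on the log2 scale (adjusted p = 4.46e-06), higher in 3 of 3 libraries. PURPL#2-OE exceeded PURPL#1-OE in PTGS1 by 0.34 (adjusted p = 2.38e-05), in PLA2G4A by 0.79 (adjusted p = 2.25e-05) and in PTGIS by 0.25 (adjusted p = 0.00677), in each gene with all 3 libraries above all 3. The mean overexpression effect minus the mean knockdown effect was 0.33 for PTGS1 (adjusted p = 0.000298), -2.11 for PLA2G4A (adjusted p = 1.39e-13), -0.96 for PTGES (adjusted p = 1.26e-07) and -0.50 for PTGIS (adjusted p = 0.00482). For PLA2G4A the effects had opposite signs in the experiments, with every altered library of one table below its controls and every altered library of the other above them. No group has enough libraries for a test of a single outlying sample.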

How the results depend on the processing

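Under the alternatives, the counts of all genes passing stayed within 1.5 times in 91 of 91 comparisons, member counts in 88 of 91 and list counts in 266 of them, with 7 outside. Of single members' values 590 stayed the same, 5 lost the threshold and 4 gained it. The same means the same side of the threshold. For PTGS2 against the controls, which has no p-value, it means a shift smaller than the SD within groups. No called value changed sign; uncalled ones did, PTGER4 between the overexpression lines (-1.31 to 0.19) and PTGFR between the experiments (-0.03 to 0.04). Between guides 2 and 1 the number of members passing was 2 instead of 1 in a fit of those groups alone, and 1 to 2 when a library was left out. The 9 changed calls are given with their genes above, and the cause was not tested. Replicate numbers did not pair the knockdown libraries (same-number pairs had correlations of -0.112 to 0.0447); with the replicate block 4 members still passed with each guide, 1 between guides, and 3250 and 3217 genes in all passed with guides 1 and 2. The filter on low counts left PTGER2 and HPGD, and PTGER4 with the guides, out of the tests; without it their adjusted p was 0.202 or more.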
